A study of Gallus gallus with 3 samples.

Results

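The black module is a group of 41 genes whose levels varied together from cell to cell in the chicken foot at Hamburger-Hamilton stage 29 (HH29). The members are the genes that the study's module table lists for it. The rule also leaves out 4 annexin and S100 genes (S100A6, S100A11, ANXA1 and ANXA2), none of which stood on that list. The count tables of the series together held 11442 genes. All 41 members were in the HH29 table, 26 were in the HH25 table and 29 in the HH31 table, and 24 were in all 3. A member with no column in a table was not analysed here at that stage. The weighted correlation network that made the module ran on the HH29 cells, so every HH29 value below describes the genes that this choice produced, and HH25 and HH31 are the libraries that the choice did not use.

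Leukocytes reach the limb bud through its blood vessels and by migration through the mesenchyme. In the embryo, the first of them to enter tissues are macrophages, which engulf dying cells, break them down in lysosomes and recycle their iron and haem. Antigen processing, Toll-like receptors and the tyrosine phosphatase CD45 (gene PTPRC) are shared by many kinds of leukocyte. Some of these genes, such as ferritin and the light chain of class I molecules, are also used by most other cells of the body.

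The study dissociated hind limb cells of Gallus gallus embryos and counted unique molecular identifiers (UMIs) per gene and cell, with 1 library for each stage. The HH25 library came from the entire autopod and was made with the 10x v2 chemistry. The HH29 library came from digits 3 and 4 with the interdigit tissue beside them, was made with DropSeq and had 3 technical replicates. The HH31 library came from the tip of digit 4, again with 10x v2. Stage, platform and dissection therefore cannot be told apart, there is no biological replicate, and no p-value is given. Levels are given in CPM (UMIs of the gene, pooled over a population of cells and scaled to the customary fixed total), and intervals are exact 95% intervals that cover counting error only. After the study's limits on UMIs and mitochondrial share were applied again, 5938 HH25 cells, 6806 HH29 cells and 4796 HH31 cells remained, and the median cell had 2046, 2946 and 2481.5 UMIs in that order. HH25 and HH31 shared 48 barcode sequences, neither shared any with HH29, and 6 recurred between HH29 technical replicates.

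The authors' sub-cluster of leukocytes at HH29 held 22 of the 6806 cells, 9 in technical replicate 1, 9 in replicate 2 and 4 in replicate 3. These cells had a median of 3382 UMIs, against 2946 in the other 6784 cells. Of 48 leukocyte markers outside the module, only LSP1, an actin-binding protein of leukocytes, could be matched to an identifier, so the name was checked on few genes. LSP1 had 1192 CPM in the leukocytes and 127.7 CPM in the other cells, and 18 of the 22 cells had a UMI of it. It is not confined to them, since the highest of the other sub-clusters had 828 CPM. The macrophage scavenger receptor STAB1 was highest in this sub-cluster, with 236 CPM against 2.06 CPM in the other cells. Both thrombocyte markers with an identifier, ITGB3 and THBS1, had 0 UMIs in the 22 cells. THBS1 had 93.5 CPM in the other cells, and the interval of its log2 ratio ended at -0.95. ITGB3 had 9.63 CPM there and an interval up to 2.34, so its 0 does not show a lower level. No T cell or granulocyte marker could be matched, and the only B cell marker that could, EBF1, had 1 UMI, so the kind of leukocyte cannot be read from these tables.

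Markers of other cells were few in the sub-cluster. The 10 limb mesenchyme markers summed to 445 CPM in the leukocytes, against 3384 CPM in the other cells, and 13 of their 34 UMIs lay in 1 cell. Of 10 endothelial markers, 7 were at 0 in the leukocytes, CDH5 and KDR among them. The list summed to 183 CPM in the leukocytes, against 75.6 CPM in all other cells and 4512 CPM in the endothelium. EGFL7 and RAMP2 made up most of it, with 5 and 8 UMIs in the leukocytes and log2 ratios to the other cells of 3.19 (1.55 to 4.44) and 2.37 (1.15 to 3.36). The 4 haemoglobin genes and carbonic anhydrase 2 summed to 157 CPM in the leukocytes, inside the range of 75.3 to 7473 CPM over the other sub-clusters. The part that these transcripts play in the members' levels was not tested.

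At HH29 all 41 members were higher in the leukocytes than in every other sub-cluster. The median of their log2 ratios to the other cells was 5.74, whereas the median over all genes with at least 10 UMIs was -0.94. All 41 were at least 2-fold higher in the leukocytes, a level that 14.5% of the 10804 genes met. The interval lay above 0 for all 41 as well, against 7.71% of all genes. Since the module was built on these cells, nothing is read from these counts. Members took 5.57% of the UMIs of the leukocytes and 0.212% of those of the other cells. In the plot of member levels at HH29 the 3 technical replicates lie to the right of the next-highest sub-cluster for 38 members. The exceptions, ENTPD1 and NINJ1 among them, had no UMI in the 4 leukocytes of replicate 3 and were highest in the leukocytes in the other 2.

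**Figure D1:**
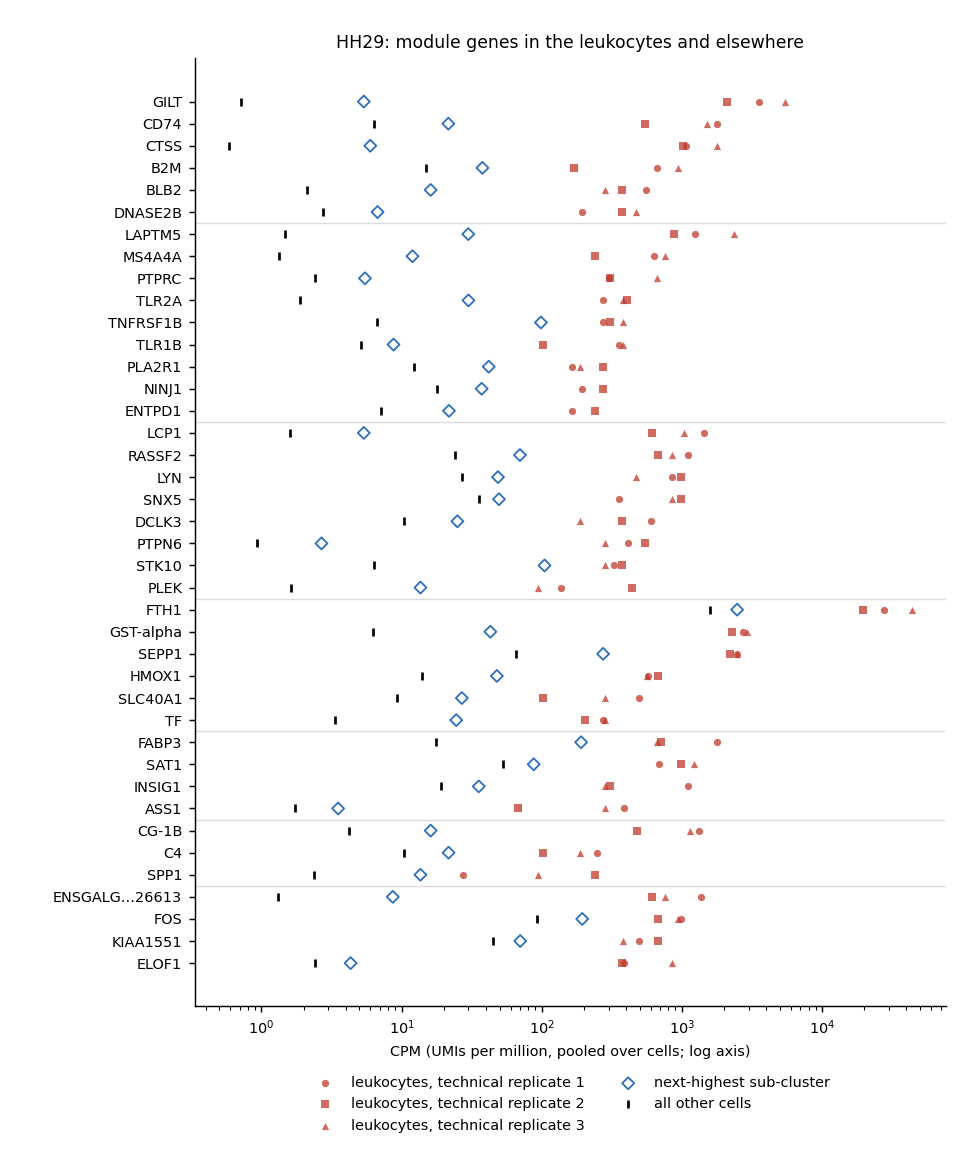
Level of 40 of the 41 module genes at HH29, in CPM on a log axis, grouped by role from antigen processing at the top to nuclear and other genes at the bottom. Red symbols are the leukocytes of each technical replicate, open diamonds the next-highest sub-cluster and black bars all other cells pooled, and a replicate with no UMI is not drawn. GILT had 3275 CPM in the pooled leukocytes against 0.715 CPM in the other cells, and FTH1 had 26728 CPM against 1579 CPM.

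Members differed in how far they were confined to the leukocytes. The 22 leukocytes held 0.32% of the UMIs of the library. For 8 members they held over 50% of the library's UMIs of that gene. These were GILT (93.6%), CTSS (86.3%), LAPTM5 (73.3%), ENSGALG00000026613 (71.0%), LCP1 (68.1%), PTPN6 (60.7%), a class-alpha glutathione S-transferase (ENSGALG00000016325, 56.9%) and MS4A4A (54.3%). The nearest gene below that limit was the galectin CG-1B at 42.3%. For 21 members the share lay between 10% and 50%, and for 12 it was under 10%, down to 2.90% for FOS. How many of all genes reach these shares in the same cells is not given here. Since the module was built on these cells, the counts only describe it.

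The antigen processing and lysosomal members held the most restricted genes. GILT, known in mammals as IFI30, is the thiol reductase that opens disulfide bonds of engulfed proteins in lysosomes. It had 3576, 2111 and 5476 CPM in the leukocytes of technical replicates 1, 2 and 3, and 0.715 CPM in all other cells, where 17 UMIs were counted. The log2 ratio was 12.16 (11.45 to 12.96). CTSS, the cathepsin that trims the invariant chain in mammals, had 1073, 1021 and 1794 CPM in the 3 replicates, with 0.589 CPM elsewhere and a log2 ratio of 10.93 (10.11 to 11.86). The replicates of either gene lie far above the other cells and differ from each other by less than 3-fold.

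CD74, the invariant chain of class II molecules, had 1788, 545 and 1511 CPM in the leukocytes of the 3 replicates, against 6.31 CPM in the other cells. BLB2, a class II beta chain, had 550, 374 and 283 CPM, against 2.10 CPM. B2M, the light chain of class I molecules, had 660, 170 and 944 CPM, against 14.9 CPM. B2M was the least restricted of this group, with 9.92% of its UMIs in the leukocytes. The acid nuclease DNASE2B, of the family that digests engulfed DNA, had 193, 374 and 472 CPM, against 2.73 CPM. In each replicate the 6 genes of this role were higher in the leukocytes than in the pooled other cells. The module was built on these cells, so nothing is read from that. BLB2 has a close neighbour of similar sequence in the chicken class II region, and how reads were divided between such copies is not given in the sources used here.

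Among the surface receptors and membrane proteins, LAPTM5, a lysosomal membrane protein of blood cells, had 1238, 885 and 2360 CPM in the leukocytes of the 3 replicates, against 1.47 CPM elsewhere. PTPRC, the pan-leukocyte phosphatase CD45, had 303, 306 and 661 CPM, against 2.40 CPM, with a log2 ratio of 7.20 (6.49 to 7.89). The Toll-like receptor TLR2A had 275, 408 and 378 CPM, against 1.89 CPM. TLR1B, which pairs with Toll-like receptor 2 molecules, had 358, 102.1 and 378 CPM, against 5.13 CPM. The tumour necrosis factor receptor TNFRSF1B had 275, 306 and 378 CPM, against 6.65 CPM. The last of these was nearest to a neighbour: the endothelium had 98.7 CPM of TNFRSF1B. MS4A4A, a tetraspanning protein of macrophages in mammals, had 498 CPM in the pooled leukocytes and 1.35 CPM in the other cells. The ectonucleotidase ENTPD1, the phospholipase receptor PLA2R1 and the membrane protein NINJ1 had 13 to 16 UMIs each in the leukocytes and log2 ratios between 3.45 and 4.57. Levels of the Toll-like receptors rest on the division of reads among close paralogs, which is likewise not given.

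Signalling and cytoskeletal members cover both ends of restriction. LCP1, the actin-bundling plastin of leukocytes, had 1430, 613 and 1039 CPM in the 3 replicates, against 1.60 CPM in the other cells. PTPN6, the phosphatase SHP-1 of blood cells, had 413, 545 and 283 CPM, against 0.926 CPM. Its interval in log2 was 8.10 to 9.75. The Src-family kinase LYN had 853, 987 and 472 CPM, against 26.9 CPM, and was found in 19 of the 22 leukocytes. PLEK, the pleckstrin of platelets and phagocytes, had 138, 443 and 94.4 CPM, against 1.64 CPM. PTPN6 was found in 14 leukocytes and had 22 UMIs in the other cells, where LYN had 640. STK10, a kinase of lymphocytes in mammals, had 341 CPM in the leukocytes and 105 CPM in the endothelium, the smallest gap to a neighbour but that of TNFRSF1B. The Ras-associating protein RASSF2, the kinase DCLK3 and the sorting nexin SNX5 had log2 ratios of 5.23, 5.45 and 4.23 to the other cells.

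The iron and haem genes included the member with the highest count. FTH1, the ferritin heavy chain that stores iron, had 27724, 19438 and 43523 CPM in the leukocytes of the 3 replicates. It had 1579 CPM in the other cells, and every sub-cluster held at least 1170 CPM. The log2 ratio was 4.08 (4.02 to 4.15). FTH1 alone gave 2.67% of the UMIs of the leukocytes, against 0.158% in the other cells, and 18 of the 22 leukocytes were above the highest of the 6784 other cells, at 16018 CPM. HMOX1, the haem oxygenase that frees iron from haem, had 578, 681 and 566 CPM in the 3 replicates, against 14.1 CPM. The iron exporter SLC40A1 (ferroportin) had 495, 102.1 and 283 CPM, against 9.34 CPM. TF, the iron carrier transferrin, had 275, 204 and 283 CPM, against 3.37 CPM. FTH1, HMOX1 and SLC40A1, members of a module built on these cells, were higher in the leukocytes of each replicate. SEPP1, the selenium carrier selenoprotein P, had 2475, 2213 and 2455 CPM, against 66.0 CPM. The glutathione S-transferase had 2723, 2281 and 2927 CPM, against 6.27 CPM. The 3 replicates of SEPP1 had an SD of 146 CPM around a mean of 2381 CPM, and those of the transferase an SD of 330.2 CPM around a mean of 2643 CPM.

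The remaining members are of mixed function. FABP3, a fatty acid carrier, had 1788, 715 and 661 CPM in the leukocytes of the 3 replicates, against 17.7 CPM in the other cells. ASS1 of arginine synthesis, INSIG1 of sterol control and the polyamine acetyltransferase SAT1 had 249, 681 and 878 CPM in the pooled leukocytes, against 1.72, 19.2 and 52.8 CPM. The galectin CG-1B had 1320, 477 and 1133 CPM, against 4.25 CPM. Complement C4 had 183 CPM in the pooled leukocytes, against 10.5 CPM. SPP1, the matrix protein osteopontin, had 118 CPM, against 2.36 CPM, but 5 of its 9 UMIs lay in a single cell. The transcription elongation factor ELOF1 and the early response factor FOS had 445 and 865 CPM, against 2.40 and 93.01 CPM. KIAA1551 had 550 CPM, against 45.1 CPM, and the unnamed ENSGALG00000026613 had 996 CPM, against 1.30 CPM.

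Outside the leukocytes, members did not share a neighbour. The next-highest sub-cluster was the endothelium for 9 members, smooth muscle for 7, joints for 5 and skin for 5, and the other 15 were spread over 11 sub-clusters. Several of these places rest on few UMIs: GILT and LCP1 had 1 UMI in smooth muscle, which is 5.38 CPM there, and CTSS had 2 in the endothelium. The median log2 ratio of the leukocytes to that neighbour was 3.76, and the interval lay above 0 for all 41. The module was built on these cells, and the same measure over all genes is not given here. Nothing is therefore read from that count. The endothelium came nearest with TNFRSF1B (3.05-fold lower than the leukocytes), STK10 (3.25-fold) and FOS (4.45-fold), and it also held 10 UMIs of LAPTM5 at 29.9 CPM. FABP3 had 191 CPM in the joints and 95.7 CPM in the skin. SEPP1 had 274 CPM in smooth muscle and 262 CPM in interdigit sub-cluster 12. Among the restricted genes CTSS was at 0 in 10 of the other 17 sub-clusters, GILT in 5 and LAPTM5 in 4.

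Individual leukocytes varied in how many members they showed. Members with a UMI ranged from 11 to 38 of 41 per cell, with a median of 28, and member transcripts made up 2.11% to 9.37% of a cell's UMIs, with a median of 5.28%. Over the 6784 other cells the median was 0.199% and the highest value 1.65%, so the groups do not overlap in this share, which the choice of genes fixes. The 4 cells of replicate 3 held both the lowest and the highest value. Without FTH1 the share per leukocyte was 1.10% to 4.20%. The median member was found in 68.2% of the 22 cells at their own depth. FTH1 was in all 22, GILT, LAPTM5 and CTSS in 21, and the glutathione S-transferase, SEPP1 and FOS in 20, while 8 members were in fewer than 11. After each cell was thinned to 1000 UMIs the median member was in 36.4% of the leukocytes. At that depth GILT was in 86.4% (65.1% to 97.1%) of the leukocytes and in 0.0442% of the other cells, PTPRC in 31.8% (13.9% to 54.9%) and 0.251%, and SPP1 in 9.09% (1.12% to 29.2%) and 0.147%. The median depths before thinning were 3382 UMIs in the leukocytes and 2946 UMIs in the other cells.

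**Figure D2:**
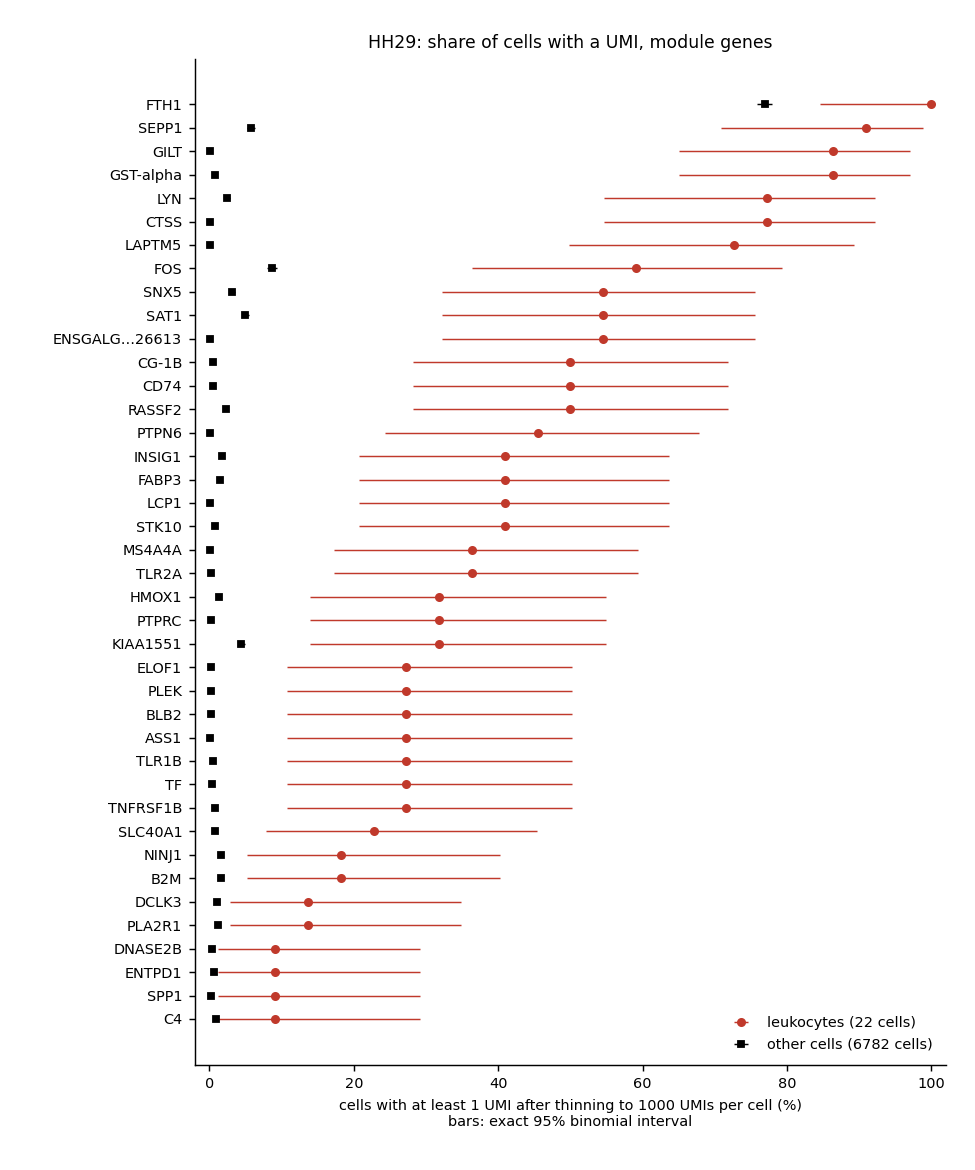
Share of HH29 cells with at least 1 UMI of each of 40 module genes after every cell was thinned to 1000 UMIs, in percent, with exact 95% binomial intervals. Red circles are the 22 leukocytes and black squares the 6782 other cells that were deep enough, and members are ordered by their share in the leukocytes. FTH1 was found in 100% of the thinned leukocytes and 76.9% of the other cells, C4 in 9.09% and 0.855%.

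A few cells that the authors placed elsewhere at HH29 also had UMIs of the restricted genes. These genes were chosen by their UMIs in the leukocytes, so higher counts there were fixed by that choice. Summed over the 8 members with over 50% of their UMIs in the leukocytes, each of the 22 leukocytes had 5 to 107 UMIs. Outside the sub-cluster 9 cells had at least 3 such UMIs and the highest had 9. That cell lay in sub-cluster 14, with 4 UMIs of the glutathione S-transferase, 2 of GILT, 2 of LAPTM5 and 1 of CTSS, and with FTH1 at 10983 CPM. It also had 15 UMIs of the limb mesenchyme markers. The other 8 cells had 3 to 5 such UMIs and FTH1 between 470 and 5471 CPM. They had 1 to 40 UMIs of the limb mesenchyme markers, against 0 to 13 in the leukocytes. Whether any of the 9 cells is a leukocyte was not tested.

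At HH25 the nearest population is the sub-cluster that the authors named blood, whose 148 cells are mixed: in 64 of them haemoglobin genes took 1% or more of the UMIs, and in 84 they took less. Of the 26 members with a column, 8 were at least 2-fold higher in blood than in the other 5790 cells, whereas 7.88% of all 9073 genes were. These were GILT, LCP1, the glutathione S-transferase, FABP3, ENSGALG00000026613, CD74, TNFRSF1B and C4. The interval of the log2 ratio lay above 0 for 8 members too, against 8.85% of all genes. There FTH1 and SAT1 stand in place of CD74 and TNFRSF1B, which had 3 and 1 UMIs in blood. No member had an interval below 0. With only the 84 blood cells under 1% haemoglobin set against the rest, 10 of the 26 were at least 2-fold higher, a level met by 10% of all genes, and 9 had an interval above 0, against 8.21% of all genes. With all 148 blood cells the median log2 ratio of the members was 0.52, or 0.67 with members at 0 set to the floor of 3 UMIs. That of all genes was -0.20.

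GILT had 78.8 CPM in HH25 blood and 0.965 CPM in the other cells, and LCP1 had 9.85 and 0.891 CPM from 3 and 12 UMIs. The glutathione S-transferase had 26.3 CPM in blood and 3.93 CPM elsewhere, a log2 ratio of 2.74 (1.46 to 3.82). Every UMI of GILT, LCP1, the transferase and ENSGALG00000026613 in blood lay in the cells under 1% haemoglobin. Many members were higher in another sub-cluster than in blood, FTH1, FABP3 and ELOF1 among them. So were C4 and CD74, with 39.4 and 9.85 CPM in blood. In the apical ectodermal ridge they had 52.6 and 17.5 CPM, from 3 and 1 UMIs. SAT1 had 75.5 CPM in blood and 88.1 CPM in the non-skeletal connective tissue. FTH1 had 3090 CPM in blood and 2184 CPM elsewhere, or 0.50 (0.41 to 0.59) in log2, and the skin held 3182 CPM. FABP3 had 39.4 CPM in blood and 10.8 CPM in the other cells, but 154 CPM in the skin. Its log2 ratio was 1.87 (0.89 to 2.72), and its 12 UMIs in blood also lay in the cells under 1% haemoglobin. ELOF1 had 410 CPM in blood and 380 CPM in the other cells, with an interval of -0.16 to 0.37 in log2. STK10, TF, TLR1B, ENTPD1 and PLA2R1 had 0 UMIs in blood, which allows up to 9.85 CPM. That is more than their 1.11 to 6.75 CPM in the other cells, so a lower level in blood was not detectable at this depth. The upper ends of their intervals ran from 0.87 in log2 for PLA2R1 to 3.62 for STK10.

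In HH25 blood 23 of the 24 UMIs of GILT lay in 4 cells. Cells were found by their summed UMIs of the restricted members that have a column at HH25 (GILT, ENSGALG00000026613, LCP1 and the glutathione S-transferase), a rule set after the data were seen, with at least 3 such UMIs required. Of 5938 cells, 5781 had none, 147 had 1, 5 had 2, and 5 passed. Of the 5, 4 lay in blood and the fifth in the mesenchyme. Cell 1 had 11 UMIs of GILT among 15 in all, cell 2 had 5 of 9, cell 3 had 6 of 7 and cell 4 had 1 of 3. Cell 5, the mesenchyme cell, had 1 UMI each of 3 of the genes. The 4 blood cells gave 0% to 0.0827% of their UMIs to haemoglobin.

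FTH1 was not used to find these cells. The 4 blood cells had FTH1 at 24171.5, 26468, 33465 and 32995 CPM, from 62, 32, 51 and 39 UMIs, and were the 4 highest of all 5938 cells. The highest of the 5933 cells that did not pass had 16945 CPM, and their median was 2053 CPM, so the 4 cells do not overlap with the rest. Cell 5 had 4971 CPM from 11 UMIs and ranked 159. In the plot of FTH1 cell by cell these 4 cells lie within the range of the HH29 leukocytes, 7595 to 58214 CPM. The HH29 library was made with DropSeq, unlike that of HH25, and other HH29 cells reached 16018 CPM, inside the lower part of that range. The remaining 144 blood cells had 2540 CPM, a log2 ratio of 0.22 (0.11 to 0.32) to the cells outside blood.

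**Figure D3:**
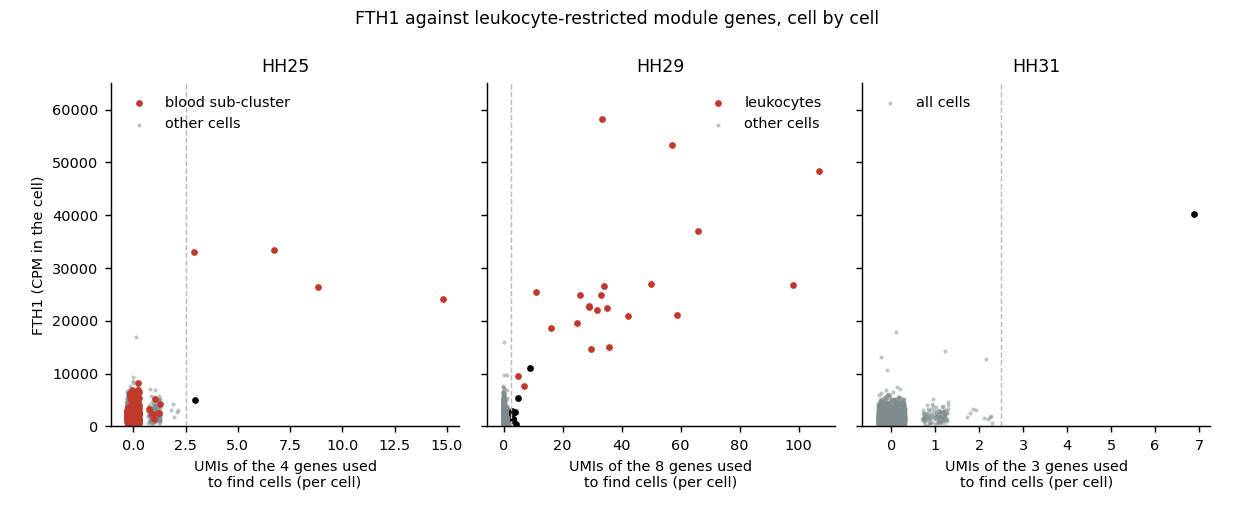
FTH1 level in CPM within each cell against the UMIs that the cell has of the restricted module genes, 4 genes in the HH25 panel, 8 in the HH29 panel and 3 in the HH31 panel, with a small horizontal scatter for display and a dashed line at the limit of 3 UMIs. Red points are the HH25 blood sub-cluster and the HH29 leukocytes, grey points the other cells, and black points other cells with at least 3 UMIs. The top 4 HH25 blood cells stand between 24171.5 and 33465 CPM and the single HH31 cell right of the line at 40304.5 CPM.

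The other members followed FTH1 in part. Of the 22 members not used to find the cells, FTH1 counted among them, the 4 blood cells had a UMI of 9, 10, 7 and 5, and cell 5 of 2. The cells that did not pass had a median of 2 and at most 6, so 3 of the 4 were above every such cell although they held only 1209 to 2565 UMIs. CD74 had 3 UMIs in the 4 cells, 1 in each of 3, and 0 in the other 144 blood cells. LYN had 4 UMIs in 2 of the cells and 0 in the other blood cells, and SLC40A1 had 3 and 1. FABP3 had 9 UMIs in the 4 cells, 7 of them in cell 1, and 3 in the other blood cells, a log2 ratio of 7.11 (5.11 to 9.63). ELOF1 had 0 UMIs in the 4 cells and 125 in the other blood cells, and the interval of the log2 ratio reached 0.46. Over the 5 cells that passed, 12 of the 22 members had an interval above 0 relative to all other cells, against 2.14% of all genes. At least 2-fold higher were 15, against 11.7%, and both counts include FTH1. A lone UMI of a sparse gene is enough for either, as it was for TNFRSF1B.

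LSP1, the actin-binding protein that is no member, had 2 UMIs in each of 3 of the blood cells, a log2 ratio over the 5 cells of 4.38 (2.92 to 5.51). Of other genes outside the module, CTSA, NPC2 and TFRC had 2, 1 and 2 UMIs in the 5 cells, and the interval of each crossed 0. None of the 4 blood cells had a UMI of the limb mesenchyme markers, whereas cell 5 had 3. The mitochondrial share of the 4 cells was 6.87% to 9.51%, against a median of 6.27% in the cells that did not pass, and its part in these levels was not tested. When ND5 and ND6 were added to the mitochondrial genes, 1 of the 5 cells failed the limit of 10%. In that setting 5 rather than 8 members were at least 2-fold higher in blood, against 8.38% of all genes. The interval lay above 0 for 3 rather than 8 members there, and the share of all genes for this is not given here.

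Values for blood without these 4 cells are a description, since the cells were picked by 4 of the genes counted. With the other 144 blood cells, 3 of the 26 members were at least 2-fold higher than outside blood, against 7.78% of all genes. The median log2 ratio of the members was -0.78 with members at 0 ranked lowest and 0.50 with them set to the floor, against 0.52 and 0.67 with all 148 cells, so its sign depends on how members at 0 are treated. The 3 members were LCP1 and GILT with 1 UMI each and the glutathione S-transferase with 4 UMIs, and the interval of each crossed 0. The interval lay above 0 for 1 member, FTH1 (0.11 to 0.32 in log2). LYN, with 0 UMIs left, had an interval wholly below 0, with its upper end at -0.26. The plot of blood ratios at HH25 shows the restricted genes moving left when the cells are taken out, while C4 lies at 1.27 with them and 0.89 without, and SAT1 at 0.68 with them and 0.43 without.

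**Figure D4:**
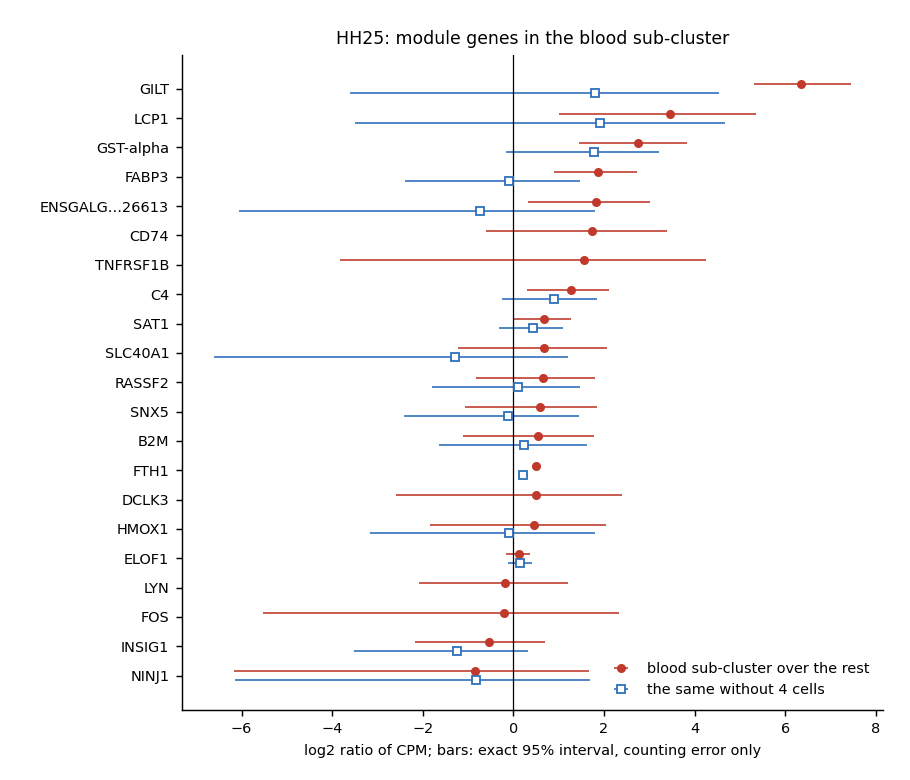
Log2 ratio of CPM in the HH25 blood sub-cluster to all cells outside it, for the 21 module genes with a UMI in blood, with exact 95% intervals for counting error. Red circles use all 148 blood cells and open blue squares leave out the 4 cells found by restricted members, with no square where no UMI was left. GILT lies at 6.35 with all cells and at 1.80 without the 4.

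At HH31 the authors named no blood sub-cluster, and 3 restricted members had a column: CTSS, ENSGALG00000026613 and the glutathione S-transferase. By the same rule 1 of 4796 cells passed, a cell of sub-cluster 6 with 2233 UMIs. It had 6 UMIs of ENSGALG00000026613 and 1 of CTSS. Its FTH1 level was the highest in the library, at 40304.5 CPM (32409.6 to 49541) from 90 UMIs, where the next cell had 17942 CPM and the median was 1617 CPM. Of the 26 members not used to find it, FTH1 counted among them, it had a UMI of 14. The other 4795 cells had a median of 2 and at most 8. FABP3 and ASS1 had 4 UMIs each in it, log2 ratios of 7.72 (5.82 to 9.11) and 8.84 (6.91 to 10.28) to the rest of the library. STK10, LYN, FOS, CG-1B, TF and C4 had 1 UMI each, which is enough for an interval above 0 in genes this sparse. In this cell 9 of the 26 had an interval above 0, against 1.47% of all genes, and 13 were at least 2-fold higher, against 7.13%. Both counts include FTH1. PTPRC, CD74 and BLB2 had 0 UMIs in it, which at this depth allows up to 1343 CPM, more than the 354, 1271 and 445 CPM of these genes in the pooled HH29 leukocytes. The cell's mitochondrial share was 8.78%, against a median of 5.80% in the other cells, and it had 1 UMI of the limb mesenchyme markers, 2 of the erythroid markers and 1 of LSP1, for which the interval of the log2 ratio was -2.81 to 4.97. The part of these in its levels was not tested. The barcodes of these HH25 and HH31 cells did not recur in another library.

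Most members had few UMIs in the HH31 library, and UMIs that free RNA may give were not measured, so the sparse ones are given as counts. Of 16 UMIs of CTSS, 1 of them in the cell above, 11 lay in the skin, at 9.94 CPM, a log2 ratio of 4.60 (2.96 to 6.47) to all other sub-clusters. FABP3 was highest in the skin as well, with 54 of 117 UMIs at 48.8 CPM, and 4 of the 117 were from that same cell. SAT1 and RASSF2 were highest in the distal mesenchyme, with 353 and 75.1 CPM. PTPRC had 20 UMIs in all, 8 of them in the distal mesenchyme, and the library held 1.51 CPM of it. FTH1 ran from 1418 CPM in the distal mesenchyme to 2679 CPM in the skin, the sub-cluster in which it was also highest, leukocytes and blood aside, at HH25 and HH29.

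The 24 members with a column in all 3 tables were compared outside blood, leukocytes and the cells found above. For 12 the highest and lowest library differed by over 3-fold, for 7 by under 2-fold, and the others lay between. The same counts over all genes are not given here, so nothing is read from those of the members. In stage order, FTH1 had 2183, 1575 and 1824 CPM. B2M had 11.4, 14.9 and 15.7 CPM, and the glutathione S-transferase had 3.86, 5.69 and 5.27 CPM. ELOF1 had 380, 2.40 and 236 CPM, a 158-fold span. It had between 140 and 470.4 CPM over the HH25 sub-clusters and between 98.4 and 359 CPM over those of HH31, while at HH29 the 22 leukocytes held 37.4% of its UMIs. LYN had 14.9, 26.9 and 1.28 CPM, and FOS had 3.79, 93.1 and 4.37 CPM. In all, 14 of the 24 were highest at HH29, the library made with DropSeq, as the plot of levels outside blood shows. The module was built on that library, and the share of all genes highest there is not given here. The differences in level are between libraries, and stage, platform and dissection cannot be told apart in them.

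**Figure D5:**
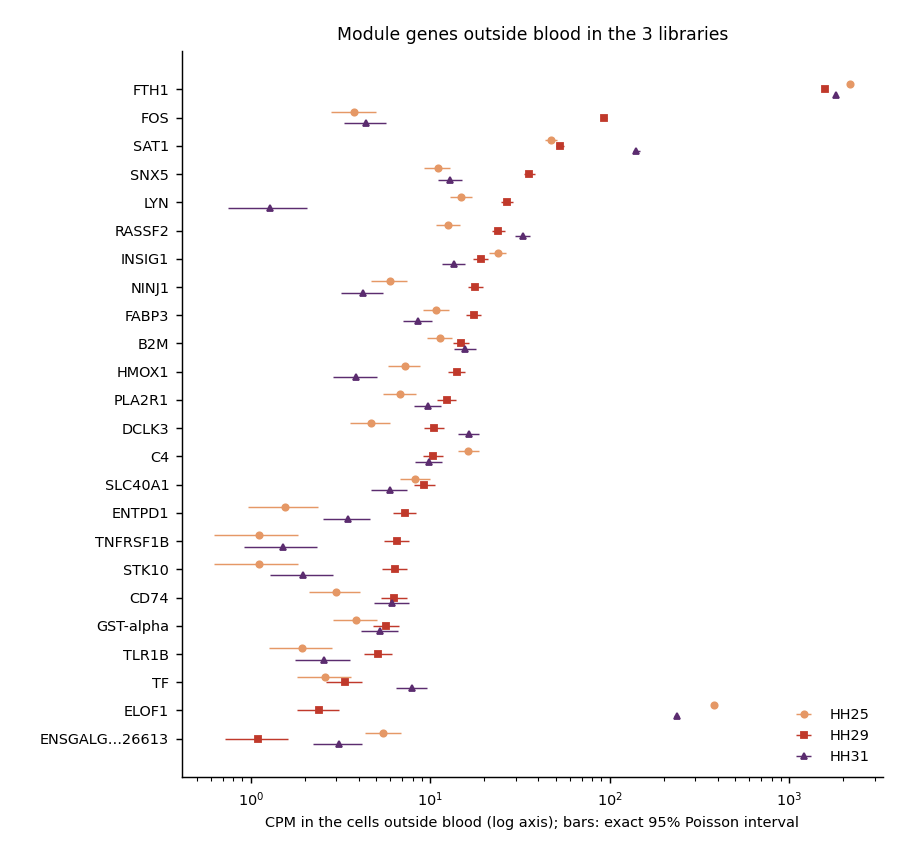
Level of the 24 module genes present in all 3 tables, in the cells outside blood, leukocytes and the cells found by restricted members, in CPM on a log axis with exact 95% Poisson intervals. Circles are HH25, squares HH29 and triangles HH31. ELOF1 stands at 380 CPM for HH25, 2.40 CPM for HH29 and 236 CPM for HH31, while FTH1 lies between 1575 and 2183 CPM.

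Other genes of the same pathways could be counted only where the study's tables name an identifier, which favours genes that the study had selected. Of 18 antigen presentation genes 5 had one, and all 5 are members. Of 25 lysosomal genes 7 had one, 4 of them members. The other 3 were at least 2-fold higher in the HH29 leukocytes, with intervals above 0. The protective protein CTSA had 498 CPM in the leukocytes and 46.4 CPM in the other cells, and the cholesterol carrier NPC2 had 485 and 41.4 CPM. Of 16 iron and haem genes 8 had an identifier, 4 of them members. Of the other 4, TFRC, ACO1 and BLVRA were at least 2-fold higher, BLVRA from 1 UMI, and TFRC, ACO1 and NCOA4 had an interval above 0. The transferrin receptor TFRC had 288 CPM in the leukocytes and 109 CPM elsewhere, a log2 ratio of 1.41 (0.73 to 2.01). Of 15 genes of leukocyte tyrosine phosphorylation 6 had an identifier, 4 of them members, and neither of the others was 2-fold higher: the adaptor GRB2 had 301 CPM in the leukocytes and 199 CPM in the other cells, with an interval of -0.06 to 1.19. The Toll-like and cytokine receptor list had 3 members and 1 other gene with an identifier, the complement list 2 and 1, and neither of those others was 2-fold higher.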

How the data were processed

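Cells of chicken hind limbs were profiled in 1 library per stage. The authors mapped reads to Gallus_gallus-5.0 with Cell Ranger 2 (10x) or the DropSeq pipeline and deposited whole UMI counts per gene and cell, with the cell's sub-cluster. The deposited cell cycle score columns were not used. The lowest number of cells with a UMI of any gene in a table was 15, 30 and 15 at HH25, HH29 and HH31. The stated limits were applied again (over 4 times the mean UMI count, under 20% of the median, over 10% mitochondrial UMIs). They removed 2, 17 and 5 cells by the upper UMI limit and 42, 0 and 22 more at HH25, HH29 and HH31 by a mitochondrial limit on 10 genes, without ND5 and ND6. Cells were not screened for ribosomal share, and no doublet caller was run.

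Counts were summed over cells and divided by the summed total (CPM). Ratios carry exact conditional intervals, shares Clopper-Pearson intervals, and a count of 0 a floor of 3 UMIs. Genes with at least 10 UMIs entered a comparison, and at least 2-fold counted as higher. A ratio of 0 UMIs was ranked lowest in a median. Intervals were tested only on simulated counts drawn independently, as the intervals assume. That test does not cover UMIs that gather in few cells. Cells thinned to 1000 UMIs used a fixed seed. Members are named, other than 1 that is counted but not reported here, as is 1 marker, and other genes come from pathway lists, with values for those with at least 20 UMIs in the leukocytes. Members and lists were chosen with earlier results of these data known. Cells with leukocyte markers outside the module were to be found at each stage by at least 3 of 48 markers, but only 1 has an identifier in the tables used here, so this was not run. No sequences are shown, since none could be matched to the members' identifiers. Python 3.11.15, numpy 2.4.6, pandas 2.3.3, scipy 1.17.1 and matplotlib 3.10.9 were used.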

Additional observations from a re-analysis of the deposited data

How the results depend on the processing

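All 41 members stayed at least 2-fold higher in the HH29 leukocytes under the 10 alternatives run, and their median log2 ratio ranged from 5.62 to 5.91. These were all deposited barcodes, no minimum or 30 UMIs per gene, mean of per-cell CPM, and thinning to 1000 UMIs. The others were a 4-fold limit, 12 mitochondrial genes in the filter, and each technical replicate left out. The share of all genes called ranged from 6.56% with the 4-fold limit to 15.4% without technical replicate 1. Since the module was built on these cells, nothing is read from the counts of members. Without each technical replicate in turn the median ratio to the next sub-cluster was 3.92 to 4.08, and the median member was in 61.5% to 69.2% of the leukocytes; thinning gave 36.4%, since fewer UMIs are drawn. At HH25, 8 of 26 members were at least 2-fold higher in blood (7.88% of all genes), and 3 met a 4-fold limit (0.915%). The 2-fold count was 11 of 26 with the mean of per-cell CPM (8.69%) and 11 of 23 after thinning (11.1%). With a minimum of 30 UMIs per gene it was 6 of 21 (6.18%). That count was 5 with 12 mitochondrial genes in the filter (8.38%) and 3 without the 4 cells found by restricted members, where the median log2 ratio of the members was -0.78, against 0.52 with them, or 0.50 against 0.67 with members at 0 set to the floor. Both were chosen after seeing the data, as was the rule for those cells. Members with an interval above 0 numbered 8 in the main setting, 3 with 12 mitochondrial genes and 1 without those 4 cells. Shares of all genes for the latter settings are not given here. Requiring 2 UMIs found 10 cells at HH25 and 11 at HH31, and requiring 4 found 3 and 1. The 3 results with leukocyte markers outside the module, and their limits of 2 and 4 markers, were not run because 1 marker has an identifier. No paired analysis was possible because each stage has 1 library. Counting error limits members with few UMIs, and intervals do not cover variation between embryos.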
